A study of Mus musculus with 23 samples.

Results

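Megakaryocyte progenitors (MkP) were compared with long-term haematopoietic stem cells (LT-HSC) from mice that carry the V617F form of the kinase JAK2. Of the 23 libraries in the series, 6 hold these cells: 3 of MkP (numbered 1, 2 and 3) and 3 of LT-HSC (numbered 6, 7 and 8). The genes described are autosomal genes that passed a filter on low counts, 13736 of the 23256 autosomal genes in a table of 24454. The remaining autosomal genes were too low in these libraries to be tested.

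All mice were C57BL/6 and received tamoxifen on 5 days, and marrow was collected 12 weeks later from femur and tibia. The mutant genotype is SclCre;V617F (SF1), in which tamoxifen turns on the V617F transgene through a Cre recombinase under Scl control. Wild-type (WT) mice had the same tamoxifen course, and 3 LT-HSC and 3 MkP libraries of these mice (numbered 30, 31 and 32 in each population) are used below for comparison only. LT-HSC were gated as lineage-negative cells with Kit, Sca-1 and CD150 on their surface and without CD48, and were not split by CD41. MkP were gated as lineage-negative cells with Kit, CD150 and CD41 and without Sca-1. RNA of both was amplified with SMART-Seq v2. Neither the age of the mice nor whether each library came from a separate mouse is stated, so the p-values below measure the spread between these libraries, which may be technical.

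The V617F libraries held 17.6 to 22 M (mega) counts in LT-HSC and 22.1 to 33.8 M in MkP. Between 15298 and 15697 genes were detected in an LT-HSC library and between 14634 and 15167 in an MkP library, and the 2 groups did not overlap (exact 2-sided permutation p = 0.1, the smallest possible with 3 against 3). MkP libraries 1 and 2 were the closest pair (Spearman correlation over genes 0.991), and still differed beyond counting noise. Counts of sex-linked genes did not all follow the labels. The V617F LT-HSC are labelled male and the V617F MkP female, so labelled sex and population cannot be told apart. Xist, the RNA of the inactive X chromosome, was at 3.15, 3.53 and 2.96 CPM (read counts scaled to the size of the library) in LT-HSC 6, 7 and 8 and at 462, 205 and 1054 CPM in MkP 1, 2 and 3. The Y-linked gene Ddx3y was at 37.5, 13.2 and 77.7 CPM in the same LT-HSC libraries. In the MkP libraries, labelled female, it was at 39.1, 61.7 and 0.207 CPM. MkP 1 and 2 therefore held both Xist and a Y-linked transcript, and MkP 3 held Xist nearly alone. All 6 WT libraries, labelled female, held both as well, with Ddx3y between 13.2 and 52.6 CPM. Results are therefore also given without MkP 1 and 2, which leaves a single MkP library whose spread is assumed to equal that of the other groups. None of the genes below is on X or Y.

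Each gene was tested in 2 ways with edgeR's quasi-likelihood test and a Benjamini-Hochberg adjusted p under 0.05. The first fit takes the spread from all 12 libraries of the SMART-Seq v2 protocol, WT included, and is called the 12-library test. A gene is said to have risen or fallen only where it passed this test. The second fit uses the 6 V617F libraries alone and is called the 6-library test. The biological coefficient of variation, the spread between libraries of a group beyond counting, was 0.787 over the 12 libraries and 0.323 over the 6 V617F libraries. The 2 tests use the same V617F counts and are not independent of each other. Log2 fold changes and list medians below come from the 12-library fit unless the 6-library fit is named. This holds also where a 6-library adjusted p stands beside them.

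Stem cells at the top of the blood system renew themselves and give rise to all blood lineages, and some of their progeny commit early to the megakaryocyte line. Megakaryocytes fill with granules, form an internal membrane system and release platelets, which use surface glycoproteins to bind von Willebrand factor, fibrinogen and collagen at a wound. Thrombopoietin drives this line by signals through JAK2, and the V617F change makes JAK2 active without the hormone. Platelet genes are typically controlled from short promoters bound by GATA and ETS family factors.

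The 250 bases upstream of the transcript start that the promoter table uses are shown for 6 platelet genes that rose in MkP (below). Itga2b among them encodes CD41 of the sort gate. The windows come from the RefSeq table of build GRCm38.p6 (the authors' mm10). Capitals mark every GATAA, the core of a GATA site, and every GGAAG, a core of an ETS site, on either strand (TTATC and CTTCC on the other strand). The motifs do not overlap each other in these windows.
Pf4: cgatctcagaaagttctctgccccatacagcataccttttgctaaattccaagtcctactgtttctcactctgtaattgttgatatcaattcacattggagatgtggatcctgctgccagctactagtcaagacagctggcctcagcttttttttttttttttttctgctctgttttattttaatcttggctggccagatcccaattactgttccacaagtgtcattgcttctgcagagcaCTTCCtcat
F2rl2: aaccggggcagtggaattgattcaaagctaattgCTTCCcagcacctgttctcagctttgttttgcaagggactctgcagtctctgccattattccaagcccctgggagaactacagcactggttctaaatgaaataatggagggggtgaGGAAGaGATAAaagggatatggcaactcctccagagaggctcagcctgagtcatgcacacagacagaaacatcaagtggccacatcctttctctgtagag
Itga2b: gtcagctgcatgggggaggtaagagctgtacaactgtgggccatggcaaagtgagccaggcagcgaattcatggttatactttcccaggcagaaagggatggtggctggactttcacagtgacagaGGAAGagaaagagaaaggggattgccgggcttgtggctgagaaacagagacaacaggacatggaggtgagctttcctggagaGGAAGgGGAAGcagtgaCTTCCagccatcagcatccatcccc
Gp1ba: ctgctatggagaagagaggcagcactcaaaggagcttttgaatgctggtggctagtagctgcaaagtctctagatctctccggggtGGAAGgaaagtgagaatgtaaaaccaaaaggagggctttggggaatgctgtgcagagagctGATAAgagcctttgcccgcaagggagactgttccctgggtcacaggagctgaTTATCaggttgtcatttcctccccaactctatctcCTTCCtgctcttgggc
Gp5: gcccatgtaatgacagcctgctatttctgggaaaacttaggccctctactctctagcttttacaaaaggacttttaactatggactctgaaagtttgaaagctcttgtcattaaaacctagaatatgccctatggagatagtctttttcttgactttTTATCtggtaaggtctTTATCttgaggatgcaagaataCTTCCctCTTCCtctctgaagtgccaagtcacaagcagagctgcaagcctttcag
Plek: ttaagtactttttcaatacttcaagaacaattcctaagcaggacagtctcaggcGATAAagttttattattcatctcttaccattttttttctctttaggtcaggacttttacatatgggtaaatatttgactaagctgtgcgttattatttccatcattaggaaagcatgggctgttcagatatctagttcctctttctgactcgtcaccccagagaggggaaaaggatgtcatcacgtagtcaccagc

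These windows lie at chr5:90772185-90772434 (plus strand, Pf4), chr13:95696670-95696919 (plus strand, F2rl2), chr11:102469884-102470133 (minus strand, Itga2b), chr11:70638872-70639121 (plus strand, Gp1ba), chr16:30310782-30311031 (minus strand, Gp5) and chr11:17008719-17008968 (minus strand, Plek). The annotated Gp1ba gene begins at 70639102, so the last 20 bases of its window, with the GGAAG nearest the start, lie inside the gene, and 0 bases of the other 5 windows lie in their genes. Gp1ba and Gp5 each hold GATAA at 2 places, F2rl2 and Plek at 1 place, and Pf4 and Itga2b at none. GGAAG occurs 4 times in the Itga2b window, 2 times in those of F2rl2, Gp1ba and Gp5, 1 time in that of Pf4, 9 bases before the start, and not in that of Plek. Over the first 250 bases of all 31396 autosomal windows in the table, 22.4% hold GATAA and 64% hold GGAAG. Of the 107 platelet genes tested here, 84 had a window, of which 21 (25%) hold GATAA and 63 (75%) hold GGAAG. A match describes the letters only.

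Between V617F MkP and LT-HSC, 152 of the 13736 autosomal genes passed the 12-library test (1.11%), of which 52 rose in MkP (0.379%) and 100 fell (0.728%). In all 152 the difference was at least 2-fold and the 3 MkP libraries did not overlap the 3 LT-HSC libraries. For a gene that passed, a statement below that its groups did not overlap therefore adds no support. Over all tested genes, 17.0% had all 3 MkP libraries above the LT-HSC libraries and 24.6% had them below. At an unadjusted p under 0.05 there were 1433 genes (10.4%), 522 on the higher side (3.80%) and 911 on the lower side (6.63%), and DESeq2 with 12 libraries called 674 (5.18%), 196 higher (1.51%) and 478 lower (3.67%). In the 6-library test, 2872 of 13040 genes passed (22.0%), 1032 higher (7.91%) and 1840 lower (14.1%), and these include all 152. The median log2 fold change over all autosomal genes was -0.06 in the 12-library test and -0.004 in the 6-library test. Without MkP 1 and 2, the 12-library test called 7 of 14749 genes (0.0475%), all of them higher in MkP, and the 6-library test called 463 of 14047 higher (3.30%) and 1147 lower (8.17%). The count of the 12-library test also depended on single libraries: 29, 39 and 44 genes passed without MkP 1, 2 and 3, 51, 40 and 49 without LT-HSC 6, 7 and 8, and 392 without the WT LT-HSC library 30. In the 6-library test 1851 genes passed without LT-HSC 6 and 1912 without MkP 1. Of 65 genes named here that passed, 14 passed after every omission of a single V617F library, among them Kcnj5, Pf4, F2rl2, Plek, Serpine2, Rab27b, Vwf, Procr, Tinagl1 and Cd74. In bulk RNA, a lower level from fewer cells of a type and a lower level from less RNA per cell cannot be told apart.

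**Figure D1:**
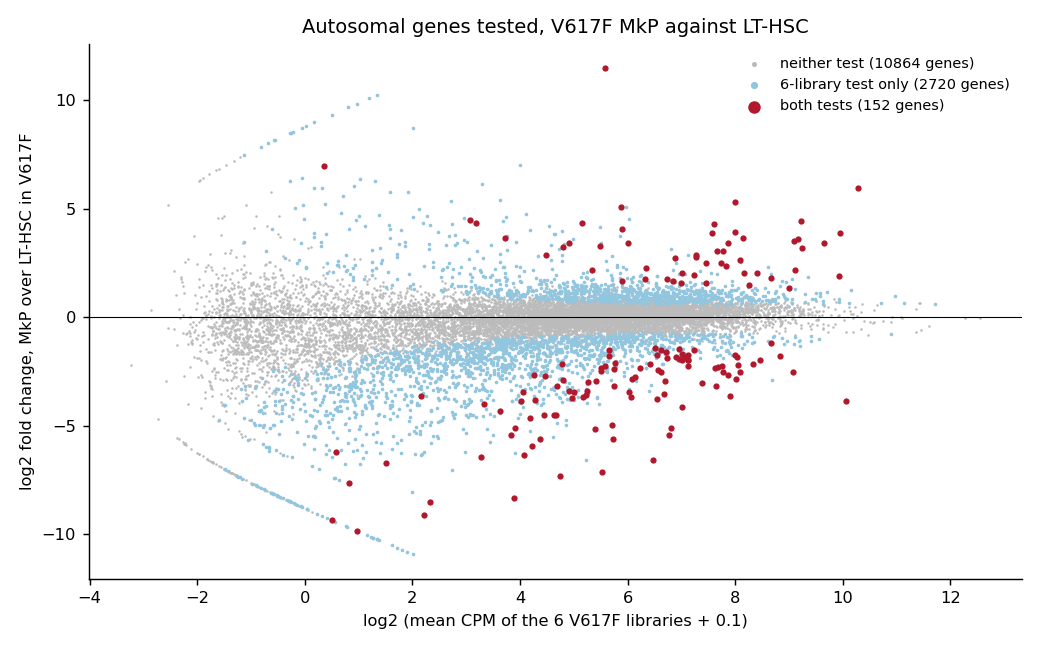
Each point is an autosomal gene, with the log2 of its mean CPM in the 6 V617F libraries (plus 0.1) on the x axis and the fitted log2 fold change of MkP over LT-HSC on the y axis. Red points (152 genes) passed both tests, light blue points (2720 genes) passed the 6-library test only and grey points passed neither.

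Genes of the sort gate are a check of the labels and no finding. Ly6a, which encodes Sca-1, was at 148, 240.1 and 136 CPM in LT-HSC 6, 7 and 8 and at 1.93, 0.961 and 2.57 CPM in MkP 1, 2 and 3 (log2 fold change -6.58 ± 0.86 (SE), adjusted p = 0.00369). Itga2b, which encodes CD41, was at 136, 88 and 134 CPM in LT-HSC and at 1313, 1303 and 633 CPM in MkP (3.18 ± 0.59, adjusted p = 0.0248), with MkP 3 below the other MkP libraries and well above LT-HSC. Cd48, whose product is absent from gated LT-HSC, rose from 5.93, 5.61 and 4.54 to 45.8, 48 and 57.4 CPM (3.23 ± 0.63, adjusted p = 0.0323). Slamf1 (CD150) and Kit, on both gated populations, differed by 0.13 ± 0.42 and -0.87 ± 0.56 on the log2 scale (adjusted p = 0.999 and 0.734). Cd34, which encodes an adhesion protein of progenitors that was not part of the gate, fell from 685, 618 and 799 to 208, 217 and 193 CPM (-1.77 ± 0.38, adjusted p = 0.0474). The labelled populations thus had the markers of their gates, and LT-HSC also held Hlf, Mecom and Procr and MkP held Pf4, Gp1ba and Gp5 at the higher level (values below). Most genes named below by list are those with the smallest adjusted p, and further members were chosen with their values known. Counts of list members are to be read beside the shares over all autosomal genes. These were 0.379% higher and 0.728% lower in the 12-library test and 7.91% higher and 14.1% lower in the 6-library test. At an unadjusted p under 0.05 they were 3.80% higher and 6.63% lower, and by DESeq2 1.51% higher and 3.67% lower.

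Genes of the platelet adhesion receptors passed on the higher side only. Of 23 tested receptor genes, 4 rose and 0 fell: Itga2b (a gate gene), Gp5, Gp1ba and Gp1bb. In the 6-library test 12 were higher and 4 lower. The list's median log2 fold change was 0.96, against -0.06 over all genes. Gp1ba, Gp1bb, Gp5 and Gp9 encode the subunits of the GPIb-IX-V complex, the receptor for von Willebrand factor. Gp1bb was at 28.1, 32 and 11.1 CPM in the LT-HSC libraries and at 391, 288 and 382 CPM in the MkP libraries, a log2 fold change of 3.90 ± 0.82 (adjusted p = 0.0468). Gp5 was at 52.3, 55.5 and 32.6 CPM in LT-HSC and 429.6, 438 and 299 CPM in MkP (3.05 ± 0.58, adjusted p = 0.0306). Gp1ba went from 42.4, 15.6 and 24.7 CPM to 160.5, 125 and 118 CPM (2.29 ± 0.48, adjusted p = 0.0459). For all 3 subunits every MkP library lay above every LT-HSC library. The fourth subunit, Gp9, was at 28.3, 51.5 and 26.3 and 105, 105 and 79.5 CPM (1.45 ± 0.39) and passed the 6-library test only (adjusted p = 0.00505, against 0.136 in the 12-library test).

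Itgb3, the partner of Itga2b in the fibrinogen receptor, was at 47.4, 43.9 and 127 CPM in LT-HSC and 387, 325 and 187 CPM in MkP (2.04 ± 0.60). Its groups did not overlap, and it passed the 6-library test (adjusted p = 0.00513) but not the 12-library test (adjusted p = 0.181). Treml1, a receptor stored in platelet granules, and Clec1b, the platelet receptor for podoplanin, had larger differences, at 4.54 ± 1.60 and 4.44 ± 1.59 on the log2 scale, and likewise passed only with 6 libraries (adjusted p = 4.44e-06 and 3.3e-05). Cd9, a tetraspanin of the platelet membrane, was at 246, 304 and 174 CPM in LT-HSC and 787, 628 and 818 CPM in MkP (6-library adjusted p = 0.0012). The 4 receptor genes lower in MkP by the 6-library test were the junctional adhesion genes F11r, Esam and Jam3 and the granule-membrane tetraspanin Cd63. They are 17.4% of the receptor genes, near the 14.1% lower over all autosomal genes. Esam, for example, was at 263, 368 and 295 CPM in LT-HSC and at 161, 161 and 90.5 CPM in MkP (-1.17 ± 0.34, 6-library adjusted p = 0.011). The collagen receptor gene Gp6 was too low to be tested. The 12-library test called 0 receptor genes without MkP 1 and 2, and the 6-library test then called 8 higher and 2 lower.

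**Figure D2:**
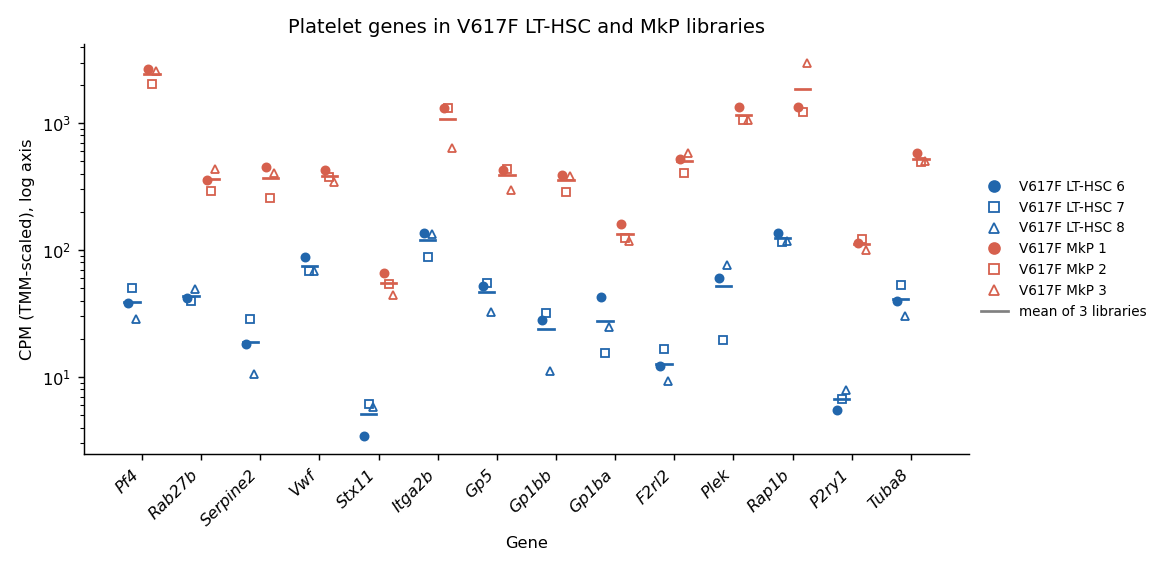
CPM on a log axis for 14 platelet genes, with 1 point per V617F library (blue, LT-HSC 6, 7 and 8; red, MkP 1, 2 and 3) and a bar at the mean of 3 libraries. For each gene shown the 3 MkP libraries lie above the 3 LT-HSC libraries; Pf4 runs from 28.8 CPM in LT-HSC 8 to 2685 CPM in MkP 1.

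Granule cargo and secretion genes gave the largest number of calls among the platelet lists: 6 of 32 tested members rose and 0 fell, with a median log2 fold change of 1.32. The 6-library test called 16 higher and 3 lower. Pf4, the chemokine platelet factor 4 of alpha granules, was at 38.5, 50.5 and 28.8 CPM in LT-HSC 6, 7 and 8 and at 2685, 2034 and 2591 CPM in MkP 1, 2 and 3. Its log2 fold change was 5.96 ± 0.42 (adjusted p = 5.24e-05), about 62.1-fold, and per kilobase of gene length it was at 4144 RPKM in MkP, the highest level among the 107 platelet genes tested. Rab27b, a small GTPase that carries dense granules to the membrane, was at 41.8, 39.5 and 49.6 CPM in LT-HSC and 353, 290.5 and 439 CPM in MkP (3.05 ± 0.30, adjusted p = 0.000307). Serpine2, a thrombin inhibitor, was at 18, 28.4 and 10.6 CPM in LT-HSC and 455, 255 and 402 CPM in MkP (4.28 ± 0.47, adjusted p = 0.000853). Neither gene's groups overlapped, and in both the MkP libraries differed from each other by less than 2-fold.

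Vwf, von Willebrand factor, which is also used to mark platelet-biased stem cells, was already at 87.5, 68.7 and 67.8 CPM in LT-HSC and reached 425, 374 and 345 CPM in MkP (2.35 ± 0.33, adjusted p = 0.00521). Stx11, a syntaxin of granule fusion, rose from 3.44, 6.13 and 5.79 to 65.9, 54.5 and 44.2 CPM (3.42 ± 0.48, adjusted p = 0.00521). Timp3, a metalloproteinase inhibitor, rose from 39.5, 28.4 and 51.3 to 353, 277 and 183 CPM (2.77 ± 0.55, adjusted p = 0.0376). In all 3 genes the lowest MkP library lay above the highest LT-HSC library. Large differences that passed the 6-library test only were those of the dense-granule gene Slc35d3 (5.09 ± 1.43, 6-library adjusted p = 1.63e-05), thrombospondin 1 (Thbs1, 4.63 ± 1.47), coagulation factor XIII A (F13a1, 4.60 ± 1.47) and the chemokine Ppbp (3.83 ± 1.20). Part of the secretion machinery did not pass either test: the granule proteoglycan Srgn was at 484, 889 and 628 and 643, 724 and 778 CPM, Stxbp2 differed by -0.28 ± 0.28 and Vamp8 by -0.34 ± 0.56 on the log2 scale. In the 6-library test 3 of 31 members were lower in MkP, a share below the 14.1% of all autosomal genes. They were Sparc and the alpha-granule assembly genes Nbeal2 (72.4, 74.3 and 82.5 against 36, 46.7 and 22.9 CPM) and Vipas39. With MkP 3 as the only MkP library, 3 members passed the 12-library test, Pf4, Serpine2 and Rab27b, and the 6-library test called 12 higher and 2 lower.

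Among receptors, G-protein regulators and adaptors of platelet activation the calls were on the higher side as well: of 34 tested members 5 rose and 0 fell (6-library test, 17 higher and 2 lower of 32). The list's median was 0.74. F2rl2, the thrombin receptor PAR3, was at 12.1, 16.6 and 9.33 CPM in LT-HSC and 517, 402 and 576 CPM in MkP (5.30 ± 0.40, adjusted p = 5.24e-05). Among the other thrombin receptors, F2r (PAR1) was at 139, 36.8 and 221 and 761, 813 and 385 CPM and passed the 6-library test only (adjusted p = 0.0091). F2rl3 (PAR4), at 71.2, 94.5 and 90.3 and 74.6, 81.6 and 38.1 CPM, passed neither. The 3 receptors thus ranged from a log2 difference of -0.40 to one of 5.30. P2ry1, an ADP receptor, rose from 5.51, 6.65 and 7.92 to 114, 123 and 99.6 CPM (4.07 ± 0.83, adjusted p = 0.0419). The 3 MkP libraries lay close together, far above LT-HSC.

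Plek (pleckstrin, a substrate of protein kinase C in platelets) was at 60.4, 19.6 and 76.1 CPM in LT-HSC and 1345, 1050.3 and 1048 CPM in MkP (4.46 ± 0.68, adjusted p = 0.00788). LT-HSC 7 was the lowest library for Plek, and all LT-HSC libraries lay far below MkP. Rap1b, the GTPase that activates the fibrinogen receptor, was at 137, 116 and 119 CPM in LT-HSC and 1335, 1234 and 2992 CPM in MkP (3.90 ± 0.64, adjusted p = 0.0125), with MkP 3 the highest. Its close relative Rap1a was at 49.1, 56.8 and 47.7 and 74, 79.9 and 80.7 CPM (0.61 ± 0.43, adjusted p = 0.791). Of 2 regulators of G-protein signalling, Rgs10 rose from 3.73, 4.42 and 1.67 to 75.4, 50.6 and 76.8 CPM (4.37 ± 0.92, adjusted p = 0.0474), and Rgs18 (1.86 ± 0.45) passed the 6-library test only (adjusted p = 0.00109). The calcium channel Orai1 and the phospholipase Plcb2 were the members lower in MkP by the 6-library test, with log2 fold changes of -1.54 ± 0.47 and -1.56 ± 0.45. Without MkP 1 and 2, the 12-library test called 1 member, F2rl2, and the 6-library test called 8 higher and 1 lower.

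Among 18 tested genes of the megakaryocyte cytoskeleton, 1 rose: the alpha-tubulin Tuba8, from 39.4, 53.5 and 30.4 CPM in LT-HSC to 580.2, 490.3 and 501 CPM in MkP (3.67 ± 0.58, adjusted p = 0.00907). The 6-library test called 5 higher and 0 lower; Vcl (vinculin, 2.20 ± 0.69) and Tpm4 (tropomyosin 4, 1.80 ± 0.47) were among them. Tubb1, the beta-tubulin of proplatelets and a late gene of the line, was at only 2.65, 0.831 and 1.33 CPM in LT-HSC and 4.04, 3.03 and 4.81 CPM in MkP, and the non-muscle myosin gene Myh9 was at 34.9, 43.4 and 63.2 and 75.3, 83.4 and 41.5 CPM. Neither passed. Leaving out MkP 1 and 2, the list's median went from 0.56 to 0.08, and no member passed the 12-library test.

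Of 23 tested transcription factors of the megakaryocytic and erythroid lines, 1 rose and 1 fell (6-library test, 5 higher and 3 lower; median 0.30). Mef2c rose from 155, 179 and 199 CPM to 639.8, 645 and 608 CPM (1.83 ± 0.34, adjusted p = 0.0277). Lyl1, a partner of the stem cell factor Lmo2, fell from 208, 249 and 210.0 CPM to 71.9, 96 and 64.8 CPM (-1.52 ± 0.29, adjusted p = 0.0277). Neither gene's groups overlapped, and each passed the 12-library test in 0 of the 6 single omissions (fits that leave out 1 V617F library). Fli1 and Gfi1b, both needed for megakaryocytes, and the GATA cofactor Zfpm1 had differences of 1.38 ± 0.52, 1.24 ± 0.32 and 1.45 ± 0.53 that passed the 6-library test only (adjusted p = 0.0167, 0.00583 and 0.00322). Gata2 (0.36 ± 0.61), Tal1 (0.20 ± 0.38), Runx1 (0.74 ± 0.36) and Nfe2 (-0.48 ± 0.33) passed neither test. The Gata2 and Tal1 differences were -0.71 and -0.03 without MkP 1 and 2. Gata1 is X-linked and not among the genes described.

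Genes of stem cell identity passed on the lower side only: of 33 tested, 9 fell and 0 rose, namely Procr, Ly6a (a gate gene), Gimap6, Sult1a1, Hlf, Ifitm1, Fgd5, Tgm2 and Erg. At an unadjusted p under 0.05, 17 were lower and 0 higher, and the 6-library test called 20 lower and 1 higher. The list's median log2 fold change was -1.50. Procr, the endothelial protein C receptor that marks LT-HSC, was at 88.2, 106 and 77.9 CPM in LT-HSC and 0.602, 0.85 and 0.502 CPM in MkP (-7.12 ± 0.68, adjusted p = 0.000292). Sult1a1, a sulfotransferase, was at 81.1, 129 and 102 and 0.945, 1.55 and 3.75 CPM (-5.63 ± 0.73, adjusted p = 0.00562). MkP levels of both genes were under 4 CPM, with MkP 3 the highest for Sult1a1.

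Hlf, a transcription factor of LT-HSC, fell from 167, 159.7 and 225 CPM in LT-HSC to 27.2, 25.5 and 19.2 CPM in MkP (-2.94 ± 0.43, adjusted p = 0.00607). Fgd5, a guanine nucleotide exchange factor used to mark stem cells, fell from 31.9, 20.4 and 38.8 to 1.93, 1.81 and 2.54 CPM (-3.85 ± 0.69, adjusted p = 0.0312). Ifitm1, an interferon-induced membrane gene, fell from 2056, 2595 and 1351 to 111, 99.1 and 202 CPM (-3.87 ± 0.62, adjusted p = 0.0104). The groups of these 3 genes did not overlap. Gimap6, Tgm2 (a transglutaminase) and the ETS factor Erg fell with log2 fold changes of -2.52 ± 0.36, -2.33 ± 0.46 and -1.50 ± 0.32. Mecom, another factor of stem cells, was at 67.6, 38.3 and 125 CPM in LT-HSC and 29.1, 27.8 and 20.7 CPM in MkP. Mecom (-1.57 ± 1.35), Mllt3 (-1.95 ± 0.53), Prdm16 (-1.52 ± 0.72) and the imprinted gene Ndn (-3.36 ± 1.17) passed the 6-library test only (adjusted p = 0.0145, 0.000205, 0.00298 and 3.43e-05). Not all stem cell genes were lower: Meis1 was at 505, 359.7 and 536 and 504, 449.5 and 502 CPM, Mycn at 231, 198 and 318 and 289, 225 and 142 CPM, and Ctnnal1 was higher in MkP in the 6-library test (1.25 ± 0.69, adjusted p = 0.0215). Leaving out MkP 1 and 2, the 12-library test called 0 of these genes and the 6-library test called 13 lower and 0 higher.

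**Figure D3:**
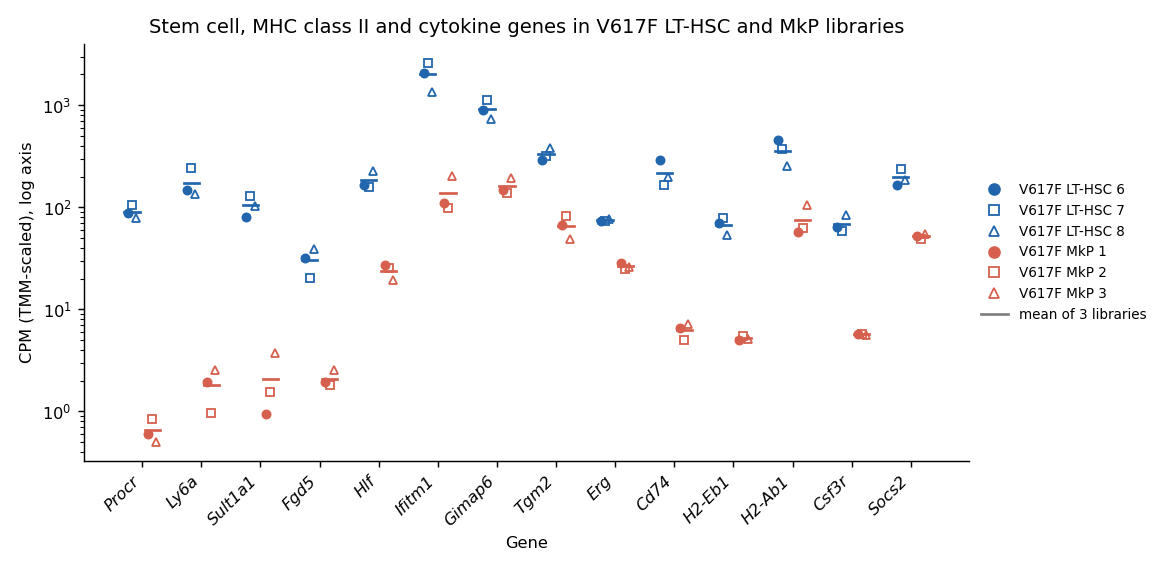
CPM on a log axis for 14 genes lower in MkP, with 1 point per V617F library (blue, LT-HSC; red, MkP) and a bar at the mean of 3 libraries. In each of the 14 genes the 3 MkP libraries lie below the 3 LT-HSC libraries; Procr lies between 77.9 and 106 CPM in LT-HSC and below 1 CPM in MkP.

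Hox genes, which encode homeodomain factors with high levels in stem cells, gave 0 calls in the 12-library test over 14 tested members, with 3 lower and 0 higher at an unadjusted p under 0.05 and 1 lower by DESeq2. The 6-library test called 10 of 11 lower and 0 higher, and the median was -1.44. Hoxa9 was at 84.7, 73 and 88.8 CPM in LT-HSC and 35.4, 32.8 and 38.2 CPM in MkP (-1.21 ± 0.47, 6-library adjusted p = 0.00409), and Hoxa7 at 32.2, 40.7 and 25.2 and 8.47, 8.09 and 9.42 CPM (-1.92 ± 0.58, 6-library adjusted p = 0.00117). Neither overlapped between the groups. The 6-library test called 1 Hox gene lower without MkP 1 and 2.

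Genes of antigen presentation on MHC class II also passed on the lower side only. Of 10 tested, 3 fell and 0 rose (6-library test, 8 lower and 1 higher; median -1.88). Cd74, the invariant chain, was at 290.1, 164 and 199 CPM in LT-HSC and 6.62, 5.03 and 7.17 CPM in MkP (-5.12 ± 0.42, adjusted p = 9.98e-05). The class II beta chain H2-Eb1 fell from 69.7, 77.7 and 53.2 to 5.03, 5.51 and 5.14 CPM (-3.68 ± 0.43, adjusted p = 0.00126). H2-Ab1, the other beta chain, fell from 453, 371 and 254 to 57.3, 62.2 and 105 CPM (-2.27 ± 0.43, adjusted p = 0.0278), with MkP 3 above the other MkP libraries. The alpha chain H2-Aa (-3.67 ± 0.82, adjusted p = 0.0549) and the class II transactivator Ciita (-1.50 ± 1.31) passed the 6-library test only. H2-Ob, a regulator of peptide loading, was the member higher in MkP, at 34.1, 36.9 and 36.8 and 57.8, 56.6 and 62.6 CPM (6-library adjusted p = 0.0339). With MkP 3 alone, 0 passed the 12-library test and 6 were lower in the 6-library test.

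Interferon-response genes gave 0 calls of 39 in the 12-library test, with 15 lower and 0 higher at an unadjusted p under 0.05 and 11 lower by DESeq2. The 6-library test called 25 lower and 0 higher, and the median was -1.61. Oasl2 was at 149, 142 and 143 CPM in LT-HSC and 36.7, 48.5 and 56 CPM in MkP, and the GTPase gene Irgm2 at 108, 82.7 and 157 and 31.9, 32.8 and 39.8 CPM (6-library adjusted p = 0.000977 and 0.00158). The factor Irf1 was at 136, 163 and 137 and 38.3, 37.3 and 41.8 CPM (6-library adjusted p = 0.000223). All 3 had MkP libraries below the LT-HSC libraries. In some members MkP 3 stood above MkP 1 and 2: Ifi44 was at 5.24, 10.1 and 22.8 CPM in MkP 1, 2 and 3, Tgtp1 at 232, 232 and 692 CPM and Xaf1 at 15, 15.9 and 42 CPM. Without MkP 1 and 2, the median of the 6-library fit was -0.94, against -1.565 in that fit with all V617F libraries.

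Of 29 tested genes of mitosis 2 rose and 0 fell, 22 were higher at an unadjusted p under 0.05, and the 6-library test called 25 higher and 0 lower (median 1.10). Mki67, the proliferation antigen Ki-67, rose from 179.6, 120.2 and 186 CPM to 406, 494 and 457 CPM (1.48 ± 0.32, adjusted p = 0.049). Ccnb1, the mitotic cyclin B1, rose from 53.8, 50.5 and 62.3 CPM to 174, 178 and 172 CPM (1.66 ± 0.33, adjusted p = 0.0377). LT-HSC 7 was the lowest library for both genes. Top2a (1.35 ± 0.32), the kinase Aurkb (1.10 ± 0.32) and Plk1 (1.11 ± 0.34) passed the 6-library test only (adjusted p = 0.00494, 0.00391 and 0.0066). Among 22 cyclins, kinases and inhibitors, Cdk6, the kinase of early G1, also rose, from 485, 369 and 373 to 1307, 1210.1 and 2100.4 CPM (1.91 ± 0.40, adjusted p = 0.0459); the 6-library test called 11 higher and 0 lower. Of the D cyclins, Ccnd1 differed by 0.87 ± 0.33 (6-library adjusted p = 0.0245) and Ccnd2 by 0.18 ± 0.34, and the quiescence inhibitor Cdkn1c was at 28.8, 12.4 and 8.38 and 2.28, 3.81 and 9.65 CPM, which passed neither test. Mki67, Ccnb1 and Cdk6 passed the 12-library test in 0 of the 6 fits that left out a single V617F library, and that test called 0 mitosis genes and 0 of the cyclin list without any single MkP library and without MkP 1 and 2 together.

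DNA replication genes gave 0 calls of 31 in the 12-library test and 0 by DESeq2, with 5 higher at an unadjusted p under 0.05, and 11 higher in the 6-library test (median 0.66). Rrm2, a ribonucleotide reductase subunit, was at 105, 109 and 112 CPM in LT-HSC and 219, 239.7 and 240.0 CPM in MkP (6-library adjusted p = 0.00262). Rrm2 was even within each group. For the helicase subunit Mcm4, with 209, 72 and 239 CPM in LT-HSC and 388, 396 and 393 CPM in MkP, LT-HSC 7 was the low library. Without MkP 1 and 2, the medians of the mitosis, cyclin and replication lists in the 6-library fit were 1.25, 0.89 and 0.82. With all V617F libraries they were 1.14, 0.90 and 0.69 in that fit.

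A count per gene does not separate reads of the V617F transgene, if assigned to Jak2, from those of the normal gene. Jak2 itself was at 74.6, 65.6 and 107 CPM in V617F LT-HSC and 102, 128 and 116 CPM in V617F MkP (0.49 ± 0.37, adjusted p = 0.825). In WT it was at 23.4, 14.5 and 36.5 CPM in LT-HSC and 43.5, 46.4 and 35.8 CPM in MkP. The V617F groups overlapped, with LT-HSC 8 among the MkP values. Of 14 receptors that signal through JAK2, 1 fell: Csf3r, the G-CSF receptor, from 63.7, 58.6 and 84.5 to 5.72, 5.76 and 5.58 CPM (-3.60 ± 0.76, adjusted p = 0.0474). The common beta chain Csf2rb (-2.18 ± 1.56) and Ifngr2 (-2.17 ± 0.61) were among 5 of 13 lower in the 6-library test, and the erythropoietin receptor Epor was higher in it, at 18.6, 31.6 and 12.2 and 48.1, 45.7 and 40.6 CPM (adjusted p = 0.0331). Csf3r passed the 12-library test in 0 of the 6 single omissions.

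Among 19 feedback regulators and targets of the pathway, 2 fell and 0 rose (6-library test, 9 lower and 2 higher; median -1.16). Socs2, a STAT5-induced inhibitor, fell from 166, 238 and 185 CPM in LT-HSC to 52.6, 49.1 and 55.1 CPM in MkP (-1.91 ± 0.40, adjusted p = 0.0474). The phosphatase Ptpn6 (SHP-1) fell from 607, 613 and 469 to 246, 257 and 252 CPM (-1.16 ± 0.24, adjusted p = 0.0459). Neither gene's groups overlapped. Each passed the 12-library test in 0 of the 6 single omissions, and with MkP 1 and 2 left out that test called 0 members while the 6-library test called 1 higher and 7 lower. Cish was at 82.9, 245 and 135 and 18, 24.1 and 11.6 CPM, the adaptor Sh2b3, which restrains JAK2, at 47.9, 46.7 and 68.2 and 11.9, 11.8 and 11 CPM, and the kinase Pim1 at 9.7, 16.5 and 13.6 and 5.8, 4.84 and 3.57 CPM. All 3 passed the 6-library test only (adjusted p = 0.000452, 0.000241 and 0.0128). Bcl2l1, the survival gene of platelets, was at 136, 124 and 47 CPM in MkP 1, 2 and 3 against 58.1, 67.9 and 65.8 CPM in LT-HSC; its log2 difference was 0.68 ± 0.52 with all libraries and -0.41 without MkP 1 and 2, and it passed neither test. None of the 11 JAK and STAT genes passed the 12-library test (2 lower at an unadjusted p under 0.05, 0 by DESeq2). Jak3 and Stat4 were lower in the 6-library test, 18.2% of the list, near the 14.1% over all autosomal genes. Stat5a and Stat5b differed by 0.10 ± 0.54 and 0.07 ± 0.61.

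Markers of other blood cells were read as well. Granulocyte progenitor genes passed on both sides. Mpo, myeloperoxidase of early granules, rose from 172, 39.5 and 50.1 CPM in LT-HSC to 805, 663 and 1717 CPM in MkP (3.60 ± 0.64, adjusted p = 0.0203), and the protease Ctsg from 24, 4.36 and 4.88 to 80.5, 64.2 and 209 CPM (3.41 ± 0.68, adjusted p = 0.0388). MkP 3 was the highest library for both. Gstm1 fell from 411, 479 and 312 to 58.8, 46.3 and 85 CPM (-2.66 ± 0.49, adjusted p = 0.0248). Of the 6 single omissions, Mpo passed the 12-library test in 2, Ctsg in 1 and Gstm1 in 0. Genes of late neutrophil granules were present in both populations and passed neither test: Ngp was at 208, 64.5 and 79.5 and 96.7, 69.3 and 45.6 CPM and S100a8 at 218, 71.2 and 82.3 and 115, 79.5 and 59.6 CPM, with LT-HSC 6 the highest library for both. Over all 18 tested members 2 rose and 1 fell (6-library test, 4 higher and 2 lower), and their summed level was 1281 to 2278 CPM in LT-HSC and 1533 to 3105 CPM in MkP.

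Mast cell and basophil genes gave 0 calls of 10 in the 12-library test, with 7 higher at an unadjusted p under 0.05, 4 higher by DESeq2 and 8 in the 6-library test (median 4.04, or 3.48 with Gzmb, at 0 in all LT-HSC libraries, at its bound). Fcer1a, the IgE receptor chain, was at 1.74, 1.87 and 2.63 CPM in LT-HSC and 24.1, 29 and 48.7 CPM in MkP, and the basophil protease Mcpt8 at 0.0829, 0 and 0.208 and 3.35, 2.29 and 11.5 CPM (6-library adjusted p = 5.58e-05 and 0.00156). Levels were low, with a summed level of 9.3 to 12.3 CPM in LT-HSC and 55.8 to 134 CPM in MkP, and 4 mast cell genes (Cma1, Mcpt4, Tpsab1 and Tpsb2) were too low to be tested. MkP 3 was again the highest.

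Erythroid genes gave 0 calls of 23 in the 12-library test, with 8 higher and 4 lower at an unadjusted p under 0.05 and 5 higher and 2 lower by DESeq2. The 6-library test called 9 of 21 higher and 3 lower. The water channel gene Aqp1 was at 29.2, 28.8 and 42.3 and 270.1, 316 and 148 CPM and the factor Klf1 at 11.6, 23.4 and 10.2 and 34.3, 70.4 and 59.1 CPM (6-library adjusted p = 0.000118 and 0.0053). The globin Hbb-bt went the other way, at 21, 43.4 and 15.7 CPM in LT-HSC and 1.07, 2.03 and 2.45 CPM in MkP (6-library adjusted p = 0.000335); its near-identical neighbour Hbb-bs makes the split of reads between them uncertain. Car1, an early erythroid gene, was at 1.98, 3.07 and 13.8 CPM in MkP 1, 2 and 3 and below 1 CPM in each LT-HSC library (4.01 ± 0.89, adjusted p = 0.0556, and 0.0064 in the 6-library test). The summed erythroid level was 2078 to 3433 CPM in LT-HSC and 2005 to 2415 CPM in MkP. Car2, which stem cells also express, made up most of it, with a mean of 2423 CPM in LT-HSC and 1409 CPM in MkP.

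Of the monocyte list 0 of 14 passed the 12-library test (1 higher and 3 lower at an unadjusted p under 0.05, 1 and 1 by DESeq2, 2 higher and 3 lower of 10 in the 6-library test), and its summed level was 68 to 98.8 CPM in LT-HSC and 39.9 to 83.6 CPM in MkP. Lymphoid genes included 1 that fell: lymphotoxin beta (Ltb), from 239, 238 and 162 CPM to 4, 5.03 and 6.02 CPM (-5.41 ± 0.77, adjusted p = 0.00521, passing in 4 of the 6 single omissions), and 7 of the 20 lymphoid genes, Cd3e and Rag1 among them, were too low to be tested. The defining B-cell gene Cd79a was at most 0.215 CPM in any V617F library. Of the 8 lymphoid genes in the 6-library test, 1 was higher and 4 were lower. The summed lymphoid level was 494 to 596 CPM in LT-HSC and 448 to 812 CPM in MkP. Most of the MkP sum was Nkg7, a granule gene of cytotoxic lymphocytes, at 107, 83.8 and 52.4 CPM in LT-HSC and 345, 411 and 665 CPM in MkP, which passed the 6-library test only (2.55 ± 0.72, adjusted p = 0.000423). With Nkg7 left out, the tested lymphoid genes summed to 489.8, 473.9 and 441.8 CPM in LT-HSC and 102, 107 and 146 CPM in MkP. Of 8 endothelial and stromal genes 0 passed the 12-library test (0 higher and 1 lower at an unadjusted p under 0.05, 0 by DESeq2, 0 higher and 3 lower of 7 in the 6-library test), their summed level was 189 to 227 CPM in LT-HSC and 78.2 to 115 CPM in MkP, and the defining gene Cdh5 was too low to be tested. No defining marker of the granulocyte, erythroid or endothelial lists was at 0 in all 3 libraries of a V617F group; Cx3cr1 of the monocyte list was at 0 in all LT-HSC libraries. The part of contaminating or mixed cells of these lineages in the differences above was not tested.

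Outside these lists, the gene with the largest rise was Kcnj5, a potassium channel subunit. It was at 0, 0 and 0.0833 CPM in LT-HSC 6, 7 and 8 and at 116, 104 and 66.8 CPM in MkP 1, 2 and 3 (adjusted p = 5.24e-05); with so few counts in LT-HSC the size of the fold is not given. Mfsd2b, a transporter of sphingosine 1-phosphate from red cells and platelets, rose from 31.9, 24.7 and 37 to 540.2, 570.0 and 333 CPM (3.94 ± 0.55, adjusted p = 0.00521). The phosphodiesterase Pde10a rose from 3.98, 4.73 and 1.5 to 134, 100.3 and 109 CPM (5.07 ± 1.09, adjusted p = 0.049). The protease inhibitors Slpi (4.34 ± 0.94) and Serpinb10 (4.49 ± 0.85) rose too. Groups that do not overlap were a condition for naming the genes of this paragraph. On the other side, the ligand gene Efna1 (ephrin A1) fell from 46.3, 66.6 and 45.5 CPM to 0.387, 0.554 and 0.0591 CPM (-7.31 ± 0.95, adjusted p = 0.00562). The matrix gene Tinagl1 fell from 39.5, 49.5 and 32.4 to 0.559, 1.22 and 0.679 CPM (-5.62 ± 0.65, adjusted p = 0.00124) and the lysosomal membrane gene Laptm4b from 78.4, 91.2 and 75.8 to 3.14, 2.59 and 1.18 CPM (-5.15 ± 1.10, adjusted p = 0.0474). Sdc4 (syndecan 4, -6.44 ± 1.0), Gbp8 (-6.37 ± 1.22), Myof (myoferlin, -5.93 ± 1.02) and Gsta4 (a glutathione transferase, -5.43 ± 1.06) fell too, all to below 2 CPM in every MkP library.

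**Figure D4:**
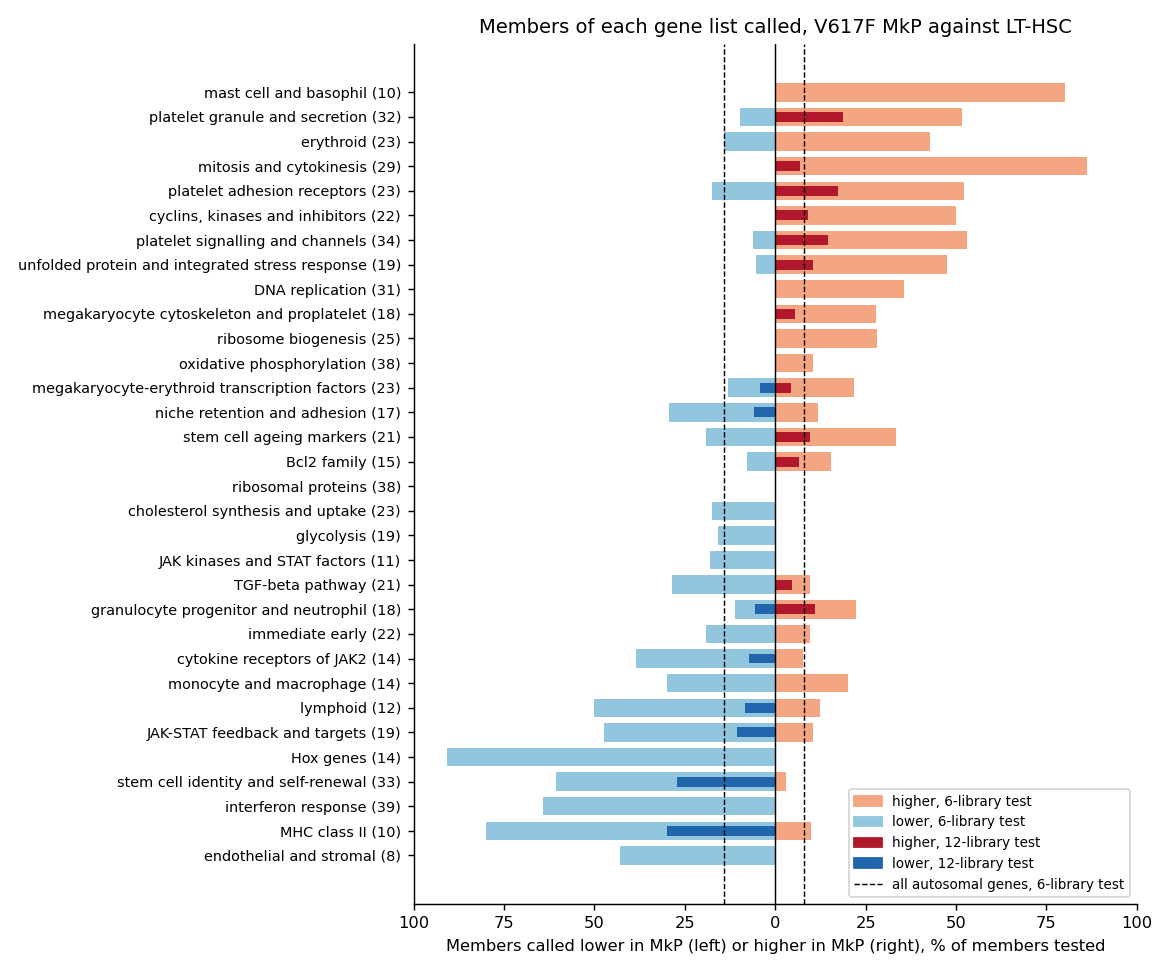
Share of tested members of each gene list called lower (left) or higher (right) in V617F MkP, with the number tested in the 12-library test in brackets. Pale bars are the 6-library test, dark bars the 12-library test, and dashed lines mark the share over all autosomal genes in the 6-library test (7.91% higher and 14.1% lower); lists are ordered by their median log2 fold change.

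The same contrast of populations in WT mice, in other libraries fitted together with these, called 1224 genes (8.91%), 324 higher (2.36%) and 900 lower (6.55%), with a median log2 fold change of -0.21 over all autosomal genes. Fitted on its own 6 libraries, the WT contrast called 14 genes (0.118%), against 2872 for V617F fitted in the same way. Of the 152 genes called in V617F, 130 were called in WT in the same direction (45 higher and 85 lower) and 0 in the opposite one. That is 85.5% of the V617F calls and 10.6% of the WT calls. The sign was the same for 99.3% of the V617F calls and for 70.3% of all autosomal genes tested. The 2 contrasts share no library, but the spread of the 12-library test comes from both. Pf4, for example, was at 60.5, 25.8 and 37.3 CPM in WT LT-HSC and 1334, 1559 and 1512 CPM in WT MkP (5.16 ± 0.41, adjusted p = 4.92e-05), and Gp1bb had a log2 fold change of 6.78 ± 0.95 (adjusted p = 0.00152). Cd34, called in V617F, differed by -0.09 ± 0.36 in WT (adjusted p = 0.929); the difference between genotypes did not pass (-1.68 ± 0.52, adjusted p = 0.281). Of the WT calls 474 are genes at 0 in all libraries of a WT group, and of the V617F calls 2 are at 0 in all libraries of a V617F group. Those 2 genes were Tnfsf11, at least 33.8-fold higher in V617F LT-HSC, and Kcnh2, at least 24-fold higher, each against a floor of 3 counts per library.

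Tested directly, the population difference itself differed between genotypes for 61 genes (0.444%): 57 with a higher MkP over LT-HSC ratio in V617F (0.415%) and 4 with a lower ratio (0.0291%). The V617F LT-HSC are labelled male and the other groups female, so genotype and labelled sex cannot be told apart in this test. All 57 were called lower in WT MkP than in WT LT-HSC, and 50 were at 0 in all 3 WT MkP libraries. In V617F, 55 of the 57 were still lower in MkP, and 7 of those passed. The V617F MkP libraries detected 14634 to 15167 genes from 22.1 to 33.8 M counts, and the WT MkP libraries 11483 to 12463 genes from 30.9 to 41.1 M counts; the part of this in the 57 genes was not tested. At an unadjusted p under 0.05 the difference between genotypes passed for 1189 genes, and DESeq2 called 496. The edgeR count was 0 without any one of the V617F LT-HSC libraries or without MkP 1 and 2 together. It was 13, 6 and 19 without MkP 1, 2 and 3, 176, 112 and 72 without WT LT-HSC 30, 31 and 32, and 209, 112 and 132 without WT MkP 30, 31 and 32.

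Procr was at 192, 56.9 and 85.5 CPM in WT LT-HSC and 0, 0 and 0.0327 CPM in WT MkP, and its difference between genotypes was 5.92 ± 1.02 on the log2 scale (adjusted p = 0.0306). In V617F MkP it was at 0.602, 0.85 and 0.502 CPM, low but present in each library. Gnat2, a transducin subunit, was at 23.9, 10.3 and 24.4 CPM in WT LT-HSC and at 0 in all 3 WT MkP libraries, at least 236-fold lower. In V617F it was at 14.6, 12.2 and 11.5 CPM in LT-HSC and 9.71, 8.02 and 13.1 CPM in MkP (-0.31 ± 0.69), so the V617F groups overlapped (difference between genotypes, adjusted p = 0.0119). Mpdz, a scaffold protein of cell junctions, was likewise at 0 in the 3 WT MkP libraries and at 4.34, 6.28 and 9.15 CPM in V617F MkP (adjusted p = 0.0153). On the lower side, Dntt, the terminal transferase of early lymphoid cells, was at 26.5, 16.6 and 10.8 CPM in WT MkP and 0.258, 0.665 and 0.177 CPM in V617F MkP, with at most 1.5 CPM in any LT-HSC library (difference -11.39 ± 1.77, adjusted p = 0.0153). Ltbp1, which binds latent TGF-beta, rose in MkP in both genotypes; it was at 2.73, 1.66 and 1.29 CPM in V617F LT-HSC and at 0 in all WT LT-HSC libraries (adjusted p = 0.0153).

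**Figure D5:**
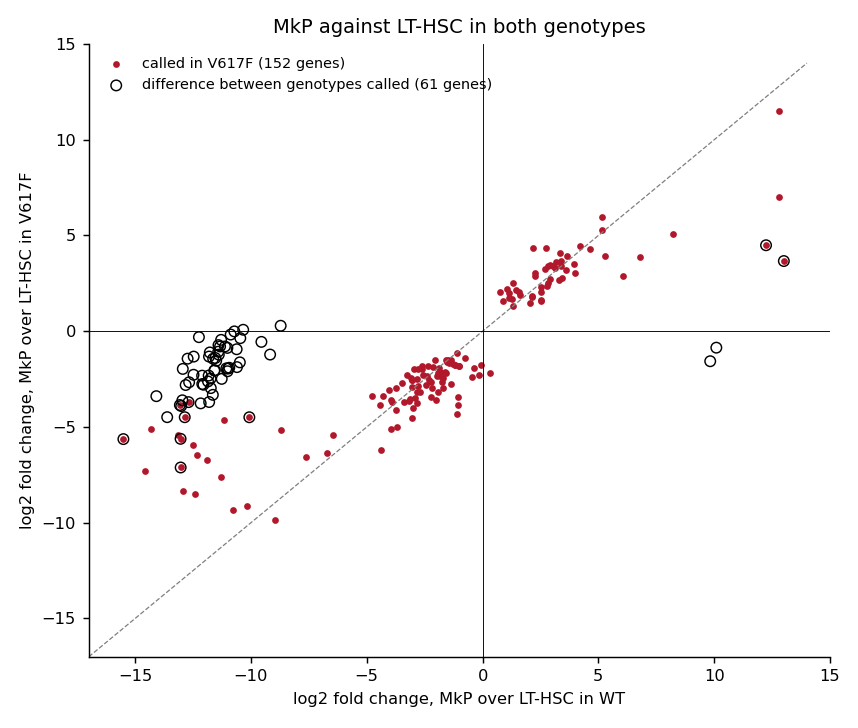
Fitted log2 fold change of MkP over LT-HSC in WT (x axis) and in V617F (y axis) for the 152 genes called in V617F (red) and the 61 genes whose difference between genotypes passed (open circles), with the line of equal values dashed. Most open circles sit at the far left, where WT MkP libraries hold 0 counts and the fitted size depends on the prior count.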

How the data were processed

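The authors deposited one table of raw read counts per gene for all 23 libraries, from RNA of sorted mouse marrow cells. Per the submitters' processing notes, STAR 2.5.2a, R 3.4.2 and limma were used with mm10; the counting tool, its strand setting and the annotation are not given in the sources used here. Counts were analysed with R 4.3.3 and edgeR 4.0.16. The 12 SMART-Seq v2 libraries of LT-HSC and MkP were scaled by TMM, filtered with filterByExpr and fitted with a quasi-likelihood model, 1 mean per genotype and population; p-values were adjusted (Benjamini-Hochberg) over all 14281 genes tested. Contrasts were MkP minus LT-HSC in V617F, the same in WT, and their difference. A further fit used the 6 V617F libraries alone. Chromosomes came from the RefSeq gene table of GRCm38.p6. CPM and RPKM were computed here from scaled counts, and RPKM with the gene lengths in the deposited table.

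SE is an approximate standard error, computed as the absolute fitted log2 fold change over the square root of the F statistic of its test. For genes near 0 in a group it depends on the prior count. Library totals of 17.6 to 49.2 M counts put 3 counts at 0.0597 to 0.156 CPM; read counts without molecular identifiers carry amplification noise beyond counting error. Alternatives were DESeq2 1.42.0, limma-voom (limma 3.58.1), RLE factors, other filters, the replicate block in WT and single omissions; the omission of MkP 1 and 2 together and the alternatives of the 6-library fit were chosen after seeing the data. The fits were also run on counts simulated with the same spread in every group. The measured spread differed between the 12 libraries and the 6 V617F libraries, so this run could not check the 12-library test under unequal spread. Genes named were the 12 autosomal genes per direction with the largest fold among those passing with at least 10 CPM in the higher group and no overlap, the 4 members of each list with the smallest adjusted p, members that complete a complex or pathway step, the 6 genes per direction with the largest difference between genotypes, and a fixed set (among them Jak2, Pf4, Itga2b, Socs2, Kit, Ly6a, Slamf1, Cd48, Car1, Cd74 and Rac1); others were chosen after their values were seen. Some items of these sets are not reported here. The members and all gene lists were chosen with earlier results of these data known. Rac1, of the fixed set, was at 247, 284 and 286 CPM in LT-HSC and 344, 373 and 308 CPM in MkP and passed neither test.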

Additional observations from a re-analysis of the deposited data

Results flagged for a closer look

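The difference between MkP and LT-HSC itself differed between V617F and WT for 61 genes by edgeR's test of that difference over 12 libraries, and 14 of them are named in the text. In 11 the log2 difference V617F minus WT was positive: Gnat2 (11.94), Krtcap3 (11.30), P4htm (11.15), Lmbr1l (10.97), Mpdz (10.84), Plxna4os1 (10.69), Sult1a1 (9.87), Gimap8 (9.27), Fgd5 (9.21), Tinagl1 (7.42) and Procr (5.92). It was negative in 3, Serpinb10 (-7.75), Ltbp1 (-9.34) and Dntt (-11.39). Adjusted p ran from 0.0119 to 0.0394 over these 14 genes. All are marked because the population difference differed between genotypes by that test. Only the V617F LT-HSC are labelled male, so genotype and labelled sex cannot be told apart in it.

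For the genes at 0 in a WT group the size of the fitted difference depends on the prior count and is not a measured fold. Krtcap3 was at 11.5, 15.1 and 9.71 CPM in V617F LT-HSC and 3.14, 6.47 and 3.84 CPM in V617F MkP, against 49.9, 20.7 and 11.7 CPM in WT LT-HSC and 0, 0 and 0 CPM in WT MkP. Fgd5 was at 34.2, 20 and 49.5 CPM in WT LT-HSC and 0, 0 and 0 CPM in WT MkP, against 1.93, 1.81 and 2.54 CPM in V617F MkP. Serpinb10 was at 0, 0 and 0 CPM in WT LT-HSC and 12.9, 22.4 and 23.1 CPM in WT MkP, and at 1.04, 0.572 and 0.5 CPM in V617F LT-HSC. The V617F and WT libraries differed in genes detected, 14634 to 15697 in V617F and 11483 to 13805 in WT, and the part of this in the 61 differences was not tested.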

How the results depend on the processing

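The number of genes passing in the V617F comparison (152) was 674 with DESeq2, 294 with limma-voom, 229 with the replicate block in WT, 2872 with only the 6 libraries compared and 7 without MkP 1 and 2, and ran from 29 to 392 when single libraries were left out. It was 161 with RLE, 143 with no filter, 175 with a filter of 5 CPM and 152 when adjusted over autosomal genes. The WT count (1224) was 2690 with DESeq2, 2103 with the replicate block, 14 with only the 6 WT libraries, 409 without V617F MkP 1 and 2 and 962 to 1749 over single omissions. The count for the difference between genotypes (61) was 496 with DESeq2, 228 with the replicate block, 0 without MkP 1 and 2 and 0 to 209 over single omissions. The 6-library count (2872) was 1610 without MkP 1 and 2 and 1851 to 3098 over single omissions. The cause of these shifts was not tested.

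Of 65 named genes that passed, all 65 passed with only the 6 libraries and 0 changed sign under any alternative run. Among genes that did not pass, the log2 difference changed sign without MkP 1 and 2 in Gnat2 (0.08), Mpdz (0.059), Vamp8 (0.028), Xaf1 (0.036), Bcl2l1 (-0.409), Gata2 (-0.711), Tal1 (-0.034), Myh9 (-0.151), Stat5a (-0.274) and Stat5b (-0.365). It changed sign over single omissions in Jak1 (-0.714 to 0.03, the latter without LT-HSC 8), Mycn (-0.406 to 0.065, above 0 without LT-HSC 8 or MkP 3), S100a8 (-0.825 to 0.173) and Srgn (-0.055 to 0.362, both turned without LT-HSC 6), Meis1 (-0.103 to 0.201, turned without LT-HSC 7), Stat5a (-0.109 to 0.266) and Stat5b (-0.175 to 0.469, both below 0 without LT-HSC 7 or MkP 2). Whether equal replicate numbers pair the WT libraries could not be decided from 3 libraries a group. Deviations of same-numbered WT libraries correlated at -0.0324, -0.00671 and 0.0237, and those of differently numbered ones at -0.0301 to 0.0391. The V617F libraries share no numbers. Limits: 3 libraries a group, sex labels that follow the populations in V617F and are all female in WT, V617F MkP 1 and 2 with transcripts of both sexes, and no statement of separate mice.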

Other observations

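Genes of protein folding and amino acid stress were a further group that passed on the higher side in V617F MkP. Of 19 tested, 2 rose and 0 fell (6-library test, 9 higher and 1 lower; median log2 fold change 0.67, against -0.06 over all genes). Asns, asparagine synthetase, was at 71.6, 67 and 51 CPM in LT-HSC 6, 7 and 8 and at 205, 137 and 232 CPM in MkP 1, 2 and 3 (1.60 ± 0.30, adjusted p = 0.027 in edgeR's 12-library test). Hsp90b1, a chaperone of the endoplasmic reticulum that folds integrins, was at 301, 222 and 352 CPM in LT-HSC and 695, 619.9 and 896 CPM in MkP (1.34 ± 0.28, adjusted p = 0.0462). MkP 2 was the lowest MkP library for both and still lay above every LT-HSC library. Over the 6 fits that left out a single V617F library, the 12-library adjusted p ran from 0.0594 to 0.166 for Asns and from 0.13 to 0.242 for Hsp90b1, and that test called 0 members without any single MkP library and without MkP 1 and 2 together. Hspa5 (BiP) and its partner Sdf2l1 passed the 6-library test only (adjusted p = 0.00204 and 0.00018).

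Ribosomal protein genes gave 0 calls of 38 in the 12-library test, in DESeq2 and in the 6-library test, and 0 at an unadjusted p under 0.05, with a median of 0.00. Ribosome biogenesis genes gave 0 calls of 25 in the 12-library test (5 higher at an unadjusted p under 0.05, 2 by DESeq2) and 7 higher in the 6-library test (28%, against 7.91% over all autosomal genes). Nucleolin (Ncl), for example, was at 539.9, 491 and 521 CPM in LT-HSC and 893, 869 and 993 CPM in MkP (6-library adjusted p = 0.0108). Of 38 oxidative phosphorylation genes 0 passed the 12-library test and 0 DESeq2 (1 higher at an unadjusted p under 0.05), and 4 were higher in the 6-library test (10.5%). Of 19 glycolysis genes 0 passed the 12-library test (3 lower at an unadjusted p under 0.05, 2 by DESeq2), and 3 were lower in the 6-library test (15.8%, against 14.1% over all autosomal genes): Aldoc, Pkm and the glucose transporter gene Slc2a1. Aldoc, an aldolase, had the largest of these differences, at 107, 181 and 89 CPM in LT-HSC and 15.2, 12.4 and 21.1 CPM in MkP (-2.95 ± 0.99). Cholesterol genes gave 0 calls of 23 (2 lower at an unadjusted p under 0.05, 1 by DESeq2, 4 lower or 17.4% in the 6-library test).

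Some genes used as markers of stem cell ageing are platelet genes, and among these Vwf rose and Selp did not. Of 21 tested, Cavin2 (a caveolar protein) and Vwf rose and 0 fell (6-library test, 7 higher and 4 lower). Cavin2 was at 49.4, 25.3 and 43.9 CPM in LT-HSC and 471, 393 and 425 CPM in MkP (3.44 ± 0.39, adjusted p = 0.00105). Selp (P-selectin of alpha granules, 1.43 ± 0.32) and Clu (clusterin, 1.42 ± 0.37) passed the 6-library test only. Of 15 genes of the Bcl2 family, Bcl2 itself rose, from 51.7, 47.5 and 46.6 CPM to 153, 163 and 173 CPM (1.74 ± 0.38, adjusted p = 0.0499). Of 17 genes of niche retention, Selplg, the ligand of P-selectin, fell from 390.5, 489.8 and 301 CPM to 106, 126 and 117 CPM (-1.76 ± 0.35, adjusted p = 0.0365), and S1pr1 and Robo4 were lower in the 6-library test only (-1.74 ± 0.39 and -3.62 ± 1.40). Of 21 TGF-beta genes, Ltbp1 rose and 0 fell (6-library test, 2 higher and 6 lower). Cavin2 passed the 12-library test in all 6 single omissions, and Bcl2, Selplg and Ltbp1 each in 0 of the 6. Immediate early genes, known to respond quickly when cells are handled, gave 0 calls of 22 (1 higher and 4 lower at an unadjusted p under 0.05, 1 and 2 by DESeq2, 2 and 4 of 21 in the 6-library test). LT-HSC 7 was the highest LT-HSC library for Ier3 (19.8, 51 and 20.6 CPM in LT-HSC and 4.94, 5.47 and 4.49 CPM in MkP) and for Btg2 (15.7, 54.7 and 17.9 and 119, 129.9 and 72.4 CPM), and the former was lower and the latter higher in MkP by the 6-library test.

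The Gimap genes, a cluster of immune GTPase genes on chromosome 6, were picked out after their values were seen and are given as a description. Of 8 tested, 4 fell in the 12-library test (Gimap1, Gimap3, Gimap4 and Gimap6), 7 were lower in the 6-library test, 6 were called lower in WT, and 0 were higher in any of the 3. Over all autosomal genes the shares called lower were 0.728%, 14.1% and 6.55% in the same order. Among the WT calls, Gimap4, Gimap7 and Gimap8 were at 0 in every WT MkP library. Gimap3 was at 43, 63 and 35.4 CPM in V617F LT-HSC and 2.06, 1.85 and 2.27 CPM in V617F MkP (-4.51 ± 0.84, adjusted p = 0.0261). Gimap1, with 589.5, 670.3 and 431 and 133, 150.0 and 149 CPM, had a smaller difference (-1.97 ± 0.36, adjusted p = 0.0248). Gimap9 passed neither V617F test, at 77.8, 108 and 81.5 CPM in LT-HSC and 48.1, 46.5 and 72.5 CPM in MkP. Of the 6 single omissions, Gimap6 passed the 12-library test in 4 and Gimap1, Gimap3 and Gimap4 in 0. The members share a genomic cluster and are not independent of each other.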
